A study of Triticum aestivum with 10 samples.

Results

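Leaf and shoot of a wheat line that grows normally were compared after growth in the cold. The comparison holds 4 of the series' 10 arrays, 2 of leaf and 2 of shoot, chosen by line, tissue and temperature and not by any measured value. The probes are those well above background on both arrays of leaf or on both arrays of shoot, 32489 of the 37826 probes that are not controls. The wild-type line is a synthetic hexaploid wheat with the wild-type phenotype. Such wheats arise when a tetraploid wheat is crossed with Aegilops tauschii, a wild goat grass, and the chromosomes are doubled. Its plants had 3 weeks at 23 °C and then either 12 weeks at 4 °C, when leaves were taken, or 6 weeks at 4 °C, when shoots with the shoot apical meristem were taken. The necrotic line, a second synthetic hexaploid with cold-induced hybrid necrosis, was sampled in the same way and adds leaf taken after 3 weeks at 23 °C. Each group has 2 arrays. Tissue and weeks of cold changed together, the leaf and shoot arrays lay on different slides, and these cannot be told apart. Whether the replicates are separate plants is not given in the labels, so that p-values measure only the spread between these samples, which may be technical.

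An expanded leaf consists largely of photosynthetic mesophyll cells that have stopped dividing, and its messenger RNA is rich in transcripts for chloroplast proteins. The shoot apical meristem is a small dome of dividing cells that makes new leaves and, after vernalization, the spike, and the tissue around it holds young leaf bases and stem. In winter wheat long cold promotes the change of this meristem to flowering, and leaves in the cold build up protective proteins such as those of the cor genes.

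A level below is the log2 of the spot's background-subtracted signal minus the 75th percentile of its array. A difference is leaf minus shoot on that scale, and a call means an adjusted p under 0.05 in limma. Most probes are named only after a contig or clone of expressed sequences, and the files do not pair these names with genes. Of the 37826 names, 0 were found in the table of wheat genes at hand. The 10 lists of marker and pathway genes, among them lists for leaf mesophyll, for the shoot meristem with dividing cells, for flowering and for root, met probe names only in the cold and dehydration list. The labelled tissues could therefore not be checked against their defining markers. The samples are bulk tissue, in which fewer cells of a type and less RNA per cell cannot be told apart.

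The arrays were similar in quality. On the 4 arrays 29243 to 32362 probes were well above background and no spot was saturated. The 2 leaf arrays correlated at r = 0.994 and the 2 shoot arrays at r = 0.998 across probes, with a median absolute difference between replicates of 0.095 and 0.068. Leaf and shoot means correlated at r = 0.683 across the same 32489 probes, which are not independent replicates.

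In the wild-type line, most probes differed between leaf and shoot. In leaf 7794 probes were at least 2-fold higher (24% of those tested) and 11297 were at least 2-fold lower (34.8%). When no minimum fold was set, 12920 probes were called higher (39.8%) and 15984 lower (49.2%) in leaf, so that 89% of all probes tested were called and 3585 were not. Of the calls 34.0% were smaller than 2-fold. The level ranges of the 2 groups did not overlap at 94.6% of probes, against the 89% that were called, and did not overlap at any of the 7794 and 11297. The median absolute difference was 1.31 on the log2 scale, many times the difference between replicates.

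Which tissue had more higher probes depended on the scaling. With the 75th percentile the median difference of all probes was −0.22. It was −0.071 when the background was corrected by normexp, 0.14 after quantile normalization and 0.17 after scaling to the median. Of the probes at least 2-fold different, 40.8% were higher in leaf with the 75th percentile. That share was 44.8% with normexp, 53.1% with quantile normalization (10039 probes higher in leaf, 8858 lower) and 52.1% with the median (10138 and 9306). No statement on the balance of 2-fold calls is therefore made.

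The control transcripts that Agilent supplies for spiking into one-colour samples were also read. Of their 10 probes, each present in 32 spots, 7 were well above background in every spot of all 10 arrays. All 7 were higher on the leaf arrays, by 0.92 to 1.88 after scaling to the 75th percentile (mean 1.52) and by a mean of 1.35 before any scaling. The mean level of the 7 was 1.33 and 1.30 on the wild-type leaf arrays and −0.31 and −0.093 on the wild-type shoot arrays. The necrotic line showed the same, with 1.33 and 1.33 in leaf at 4 °C against −0.31 and −0.25 in shoot. The leaf arrays at 23 °C, on a slide of their own, stood at 1.21 and 1.18. Relative to these controls the median probe was thus 1.74 lower in leaf, 2996 probes were at least 2-fold higher in leaf and 21588 lower. The labels do not say how much control RNA was added to each sample, and what set its level was not tested.

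**Figure D1:**
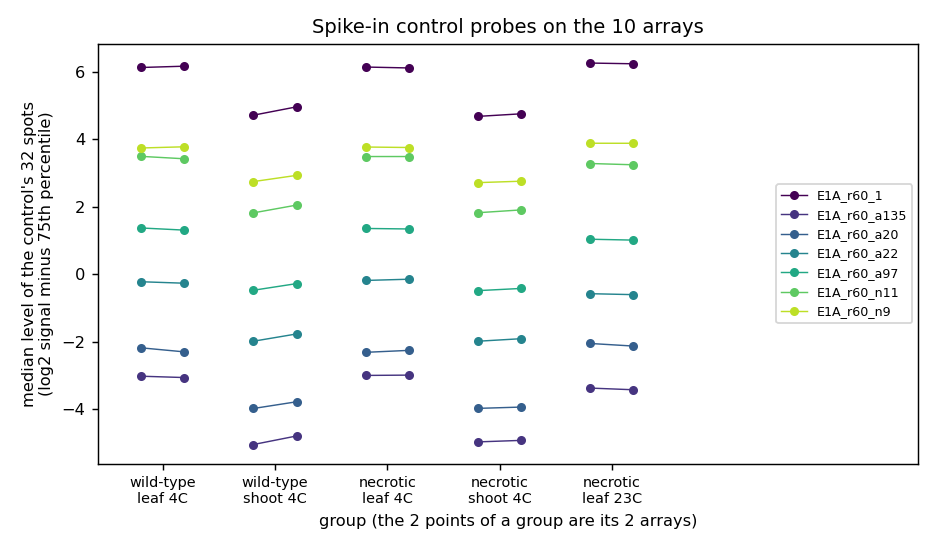
Median level of 7 spike-in control probes (vertical axis, log2 signal minus the array's 75th percentile) on each of the 10 arrays, by group (horizontal axis). Every control lies higher on the 6 leaf arrays than on the 4 shoot arrays, by 0.92 to 1.88 between the wild-type groups.

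Very large differences more often favoured the shoot. A total of 28456 probes were detected in every one of the 4 arrays, and of these 586 were at least 64-fold higher in shoot and 286 at least 64-fold higher in leaf. At 256-fold these counts were 260 and 75, and at 1024-fold 85 and 9. At 4-fold they were closer, 4375 in shoot and 3607 in leaf. Under all of the alternative settings more probes were at least 64-fold higher in shoot, with 374 in leaf and 488 in shoot under quantile normalization as the nearest pair.

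**Figure D2:**
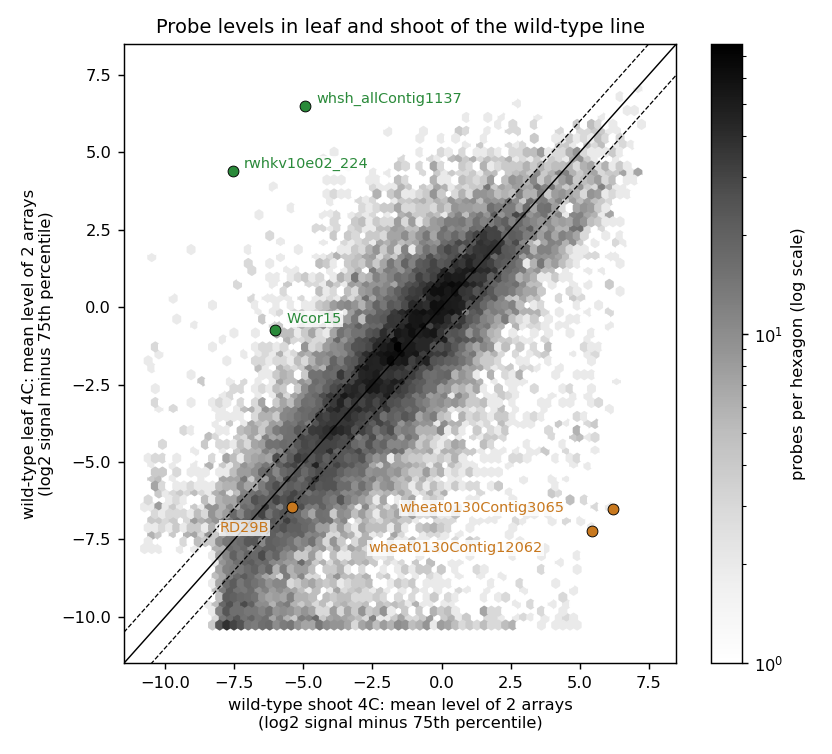
Mean level of each of 32489 probes in wild-type leaf (vertical axis) against wild-type shoot (horizontal axis), both in log2 signal minus the 75th percentile. Grey shades count probes on a log scale, the solid line marks equal levels and the dashed lines a 2-fold difference. The 3 green probes stand above the lines in leaf and the 3 orange ones below them, and the points spread further to the shoot side.

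The difference also varied with the brightness of a probe. Of the 738 probes with a mean level of 4 or more over both tissues, 43.9% were at least 2-fold higher in shoot and 12.7% in leaf, with a median difference of −0.69. Of the 5903 probes with a mean level from 0 to 2, 29.3% were at least 2-fold higher in leaf and 22.8% in shoot, with a median of 0.19. Dim probes leaned to shoot as well, with 75.1% higher in shoot and 14.2% in leaf among the 1049 below −8. From −8 to −6 these shares were 50.5% and 15.2% of 3620 probes, and from −6 to −4 43.6% and 19.9% of 4896. Over all probes they were 34.8% and 24%. The lowest level well above background was −7.89 to −8.47 on these arrays. A probe with a mean below −8 thus mostly passed the filter through 1 tissue, where it was high. There were 2622 probes detected in shoot only and 430 in leaf only. How far this set the shares of dim probes was not tested. The excess of shoot calls among the brightest probes was present under every setting, and was smallest with quantile normalization, at 31.6% against 22.5%. Of the 100 brightest probes of each tissue 21 were shared. The 1000 brightest probes made up 45.2% and 46.1% of the summed signal on the leaf arrays and 52.9% and 52.7% on the shoot arrays. An exact two-sided permutation test of that share gave p = 0.333, the smallest p that 2 arrays against 2 allow. On the necrotic shoot arrays the share was 47.5% and 47.2%, between those of wild-type leaf and wild-type shoot. On the leaf arrays at 23 °C it was 54.1% and 53.4%, above both. Signal depends on how well each probe binds, so these shares describe signal and not numbers of transcripts.

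Many more probes were detected only in shoot than only in leaf. Both leaf arrays detected 29056 probes well above background, and both shoot arrays 31889. Detection on both leaf arrays and on neither shoot array was found for 430 probes, of which 425 were called (1.31% of all probes tested). The opposite pattern was found for 2622 probes, of which 2512 were called (7.73%). Most of these were dim: their median level was −5.85 in leaf for the first set and −5.86 in shoot for the second, against −1.45 and −1.41 for probes detected on all 4 arrays. Such a probe has only a bound in the tissue where it was not detected, computed against the higher of its own signal and the lowest signal well above background there. By that bound 390 of the 425 probes were at least 2-fold higher in leaf and 68 at least 64-fold, up to at least 6647-fold. Of the 2512 shoot probes 1894 were at least 2-fold higher in shoot and 480 at least 64-fold, up to at least 16744-fold. The lowest level well above background was −7.89 and −8.19 on the leaf arrays and −8.47 and −8.38 on the shoot arrays. The part of this gap in the counts was not tested.

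Of the probes with a gene name, Wcor15 and RD29B were measured in both tissues. Wcor15, which wheat switches on in the cold, encodes a protein of the chloroplast. Its level was −0.78 and −0.71 on the wild-type leaf arrays and −5.98 and −6.05 on the wild-type shoot arrays. Both leaf arrays lay far above both shoot arrays, a 38.6-fold difference (5.27 on the log2 scale, SE 0.062, limma adjusted p = 7.53e-10).

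The necrotic line showed the same direction for Wcor15. There the probe stood at −0.060 ± 0.0033 (SD, n = 2) in leaf but on neither shoot array did it rise well above background, so that leaf was at least 349-fold higher. Leaf of the necrotic line at 23 °C stood at −4.88 and −4.91, below the cold leaves of both lines and above the wild-type shoot. Its order with that shoot depended on the scaling. Before scaling the signal was 26.9 and 26.9 in leaf at 23 °C against 30.1 and 28.6 in wild-type shoot. By the bound, the wild-type difference minus the necrotic one was −3.17 or lower (log2, with adjusted p = 1.14e-07 for the fitted difference).

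In Arabidopsis RD29B responds to drought and to abscisic acid, and the files do not give the species its probe came from. It stood at −6.47 and −6.45 in wild-type leaf and at −5.40 and −5.42 in wild-type shoot. Leaf was 2.07-fold lower (−1.05 on the log2 scale, SE 0.093, limma adjusted p = 2.49e-05), with no overlap of the arrays, but after quantile normalization the difference was 0.036 with an adjusted p of 0.699. Relative to the median probe it was −0.83 with the 75th percentile and −0.10 after quantile normalization. The necrotic line had a difference of −1.44 in the same direction (adjusted p = 5.47e-06). The cold-responsive genes cor47 and RD29A and the dehydration-response factors DREB2A and DREB2B, so known in Arabidopsis, did not reach the detection level on any array and were not tested.

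Of the probes without a gene name, the 2 highest and the 2 lowest differences, over those detected on all 4 arrays, are described. The probe rwhkv10e02_224 stood at 4.38 and 4.41 in leaf and at −7.65 and −7.47 in shoot. That is a 3970-fold difference (11.95 on the log2 scale, SE 0.073, adjusted p = 1.35e-10), with both leaf arrays bright and both shoot arrays close to the lowest level detected. This contrast was much weaker in the necrotic line, at 5.11-fold, and its shoot stood at 1.24 ± 0.032 (SD, n = 2) where the wild-type shoot was near background. The difference between the lines was 9.60 (adjusted p = 3.5e-08). Leaf at 23 °C stood at 1.35 and 1.46, far below the cold leaves of both lines, and its difference from necrotic shoot was 0.17 with an adjusted p of 0.0665.

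The probe whsh_allContig1137 stood at 6.44 and 6.54 in leaf against −4.89 and −4.98 in shoot. Its difference was 2750-fold (adjusted p = 3.52e-10). The necrotic line differed in the same direction by 4196-fold, with leaf at 6.43 ± 0.011 and shoot at −5.61 ± 0.050. The difference between the lines was −0.61 (limma adjusted p = 0.0013). Leaf at 23 °C was also high, at 7.06 on the array whose spot was not an outlier. The cold leaves of both lines were thus bright and both shoots dim.

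Among shoot-high probes, wheat0130Contig3065 stood at −6.41 and −6.62 in leaf and at 6.24 and 6.17 in shoot, 6721-fold lower in leaf (adjusted p = 1.28e-10). The necrotic line differed in the same direction by 1426-fold, and leaf at 23 °C stood higher than both cold leaves, at −3.57 and −3.59. The probe wheat0130Contig12062 stood at −7.25 and −7.17 in leaf and at 5.47 and 5.44 in shoot, 6517-fold lower in leaf (adjusted p = 1.06e-10). It was 3458-fold lower in the leaf of the necrotic line and stood at −6.92 and −6.84 in leaf at 23 °C, so that all 6 leaf arrays were dim and all 4 shoot arrays bright. Over 16 alternatives the fold lay between 623 and 7384 for rwhkv10e02_224, between 960 and 4425 for whsh_allContig1137, between 1241 and 19242 for wheat0130Contig3065 and between 1175 and 18659 for wheat0130Contig12062.

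**Figure D3:**
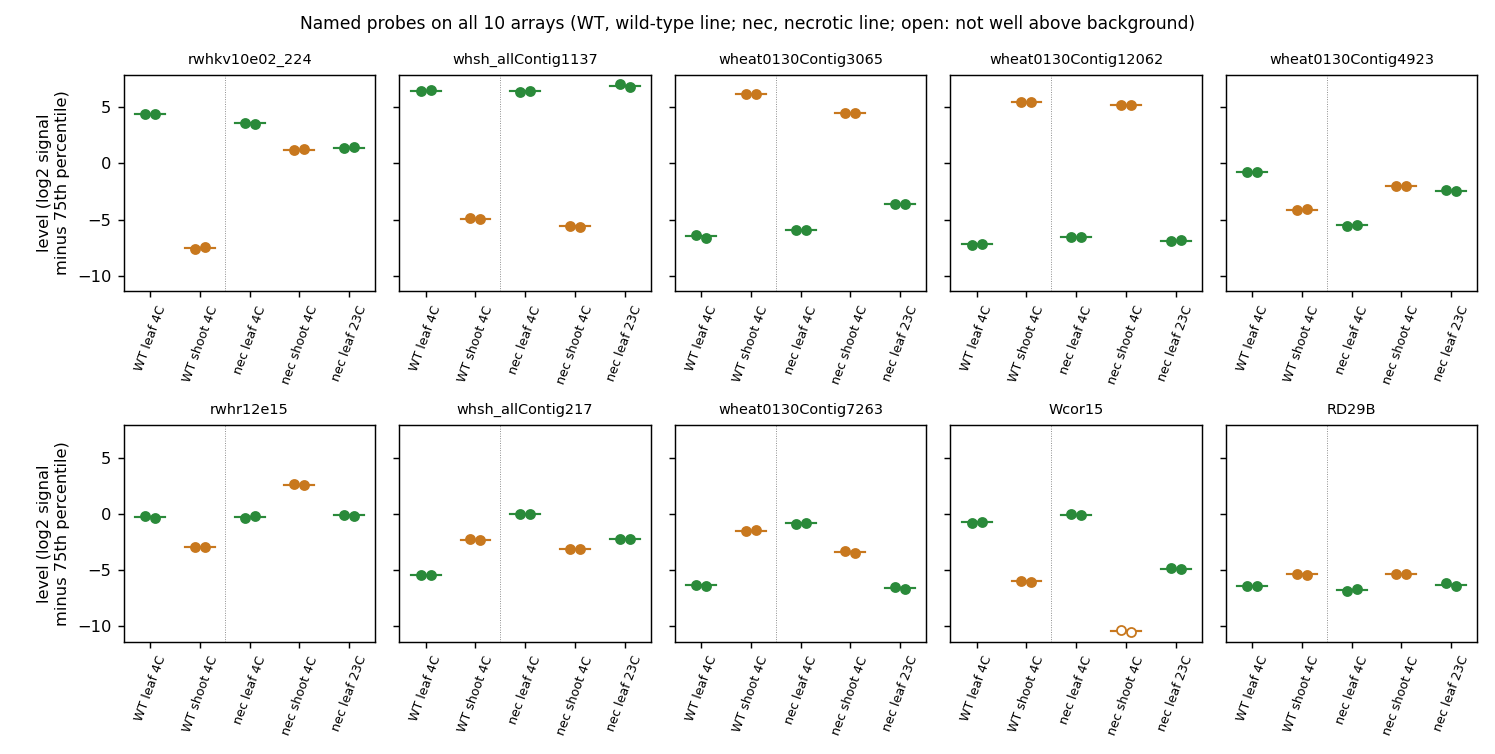
Level of 10 probes (vertical axis, log2 signal minus the 75th percentile) on each of the 10 arrays by group (horizontal axis), with a bar at each group mean of 2 arrays. Leaf is drawn in green, shoot in orange, and open points are not well above background. Replicates lie close together, and the tissue difference turns in the necrotic line for wheat0130Contig4923, rwhr12e15, whsh_allContig217 and wheat0130Contig7263.

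The necrotic line gives the same tissue comparison on 4 other arrays, which lay on the same slides. The model took its estimate of the spread from all 10 arrays. With the 4 wild-type arrays alone it gave 7786 and 11266 probes at least 2-fold higher and lower. In the necrotic line the model of all 10 arrays called 5381 probes at least 2-fold higher in leaf (16.6% of those tested) and 9541 lower (29.4%). The 7794 probes higher in wild-type leaf included 4688 (60.1%) with that call in the necrotic line too, which is 87.1% of that line's list. Of the 11297 lower probes 8515 (75.4%) were also lower, 89.2% of that line's list. Both lists of the necrotic line hold only probes detected in wild-type leaf or shoot. Opposite calls were rare, 94 (1.21%) against the 29.4% and 88 (0.779%) against the 16.6% called over all probes. Across probes, which are not independent, the differences of the 2 lines correlated at r = 0.901, and at r = 0.891 over the 28060 of them detected on all 8 arrays.

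Differences were smaller in the necrotic line on both sides. The median difference of the probes higher in wild-type leaf was 2.06 in the wild-type and 1.27 in the necrotic line, and that of the lower probes was −2.33 and −1.72. These probes were chosen by their wild-type values. All kept probes were chosen by detection in wild-type leaf or shoot, not by the size of a difference. Over these probes the median absolute difference was 1.31 in the wild-type and 0.908 in the necrotic line. The SD of the differences was 2.82 and 2.38. Probes detected in the necrotic line only are left out, and what part the filter had in the gap was not tested. The difference between the lines was itself called at 2-fold or more for 4059 probes with a higher (12.5%) and 4398 with a lower (13.5%) leaf-minus-shoot value in the wild type, together 26% of those tested. Of the 3012 probes higher in wild-type leaf that had no 2-fold call in the necrotic line, 1447 passed this test with a higher value in the wild type. The other 1565 are not shown to differ between the lines by 2-fold or more. Of the 2694 such probes on the shoot side 1024 passed it with a lower value.

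**Figure D4:**
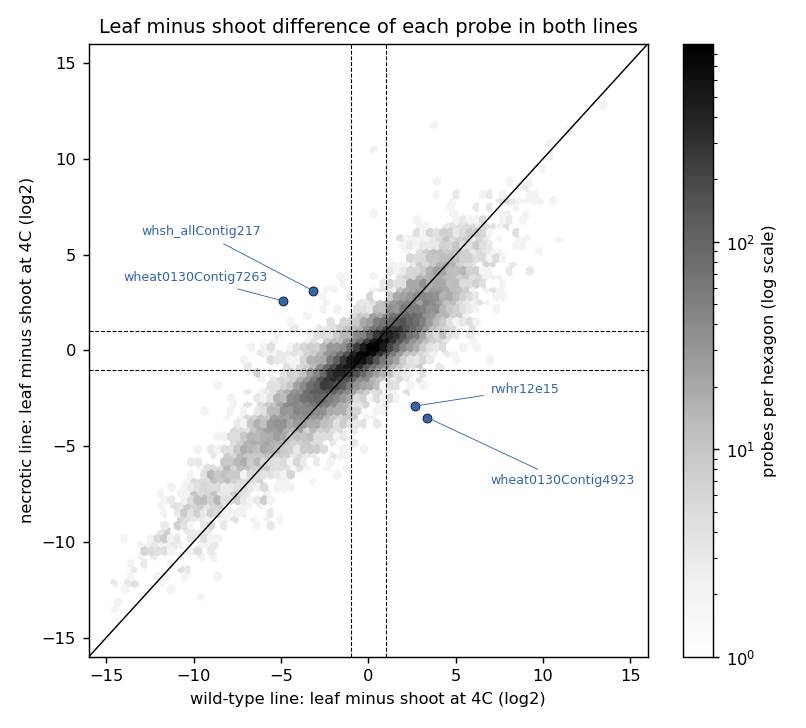
Leaf minus shoot difference in the necrotic line (vertical axis, log2) against that in the wild-type line (horizontal axis, log2) for each probe, counted in hexagons on a log scale. Dashed lines mark 2-fold and the solid line equal differences. Most probes follow the diagonal at a lower slope, and the 4 named probes lie in the corners of opposite calls.

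The 4 probes with the clearest opposite calls were chosen for that pattern, and their values are a description. The probe wheat0130Contig4923 stood at −0.75 and −0.73 in wild-type leaf and at −4.17 and −4.06 in wild-type shoot, 10.4-fold higher in leaf. In the necrotic line leaf stood at −5.52 ± 0.042 (SD, n = 2) and shoot at −2.01 ± 0.042, 11.4-fold lower in leaf, so that both tissues differed between the lines. The probe rwhr12e15 was 6.28-fold higher in leaf of the wild type and 7.52-fold lower in leaf of the necrotic line. Its leaf level was alike, at −0.27 ± 0.11 and −0.30 ± 0.15, and its shoot level was −2.93 ± 0.0019 in the wild type and 2.61 ± 0.012 in the necrotic line.

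In the other direction, whsh_allContig217 stood at −5.41 and −5.47 in wild-type leaf and at −2.29 and −2.30 in wild-type shoot, 8.84-fold lower in leaf. In the necrotic line it was 8.63-fold higher in leaf, where it stood at −0.015 ± 0.021. The probe wheat0130Contig7263 was 29.8-fold lower in leaf of the wild type, at −6.39 ± 0.089 against −1.50 ± 0.045 in shoot. It was 6.01-fold higher in leaf of the necrotic line, at −0.85 ± 0.025 against −3.44 ± 0.14. For both of these probes cold leaf was the tissue with the larger gap between the lines.

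Leaf at 23 °C, on another slide than the cold leaf, allows a further look at the same probes. It differs from the wild-type cold leaf in line, temperature and weeks of growth. Set against the necrotic shoot, it was at least 2-fold higher for 4371 (56.1%) of the 7794 probes higher in wild-type leaf, where 19.3% of all probes tested had that call. It was at least 2-fold lower for 6946 (61.5%) of the 11297, where 27.4% of all probes had that call. Opposite calls were found for 492 (6.31%) and 284 (2.51%). Of the 2622 probes detected only in wild-type shoot, 273 (10.4%) were well above background on both arrays of leaf at 23 °C, against 86.6% of all probes. Of the 430 detected only in wild-type leaf 251 (58.4%) were, also a lower share than over all probes. Most probes of both sets were dim. The lowest level well above background was −7.24 and −7.16 on the arrays at 23 °C, higher than on the wild-type arrays. How far this lowered the 2 shares was not tested. In the necrotic line 1650 of the 2622 (62.9%) were likewise detected only in shoot, 367 (14.0%) in both tissues and 6 (0.229%) only in leaf. The 430 included 166 (38.6%) detected only in leaf of the necrotic line, 164 (38.1%) in both of its tissues and 4 (0.93%) only in shoot. Over all 32489 probes these shares were 6.02% only in shoot, 0.776% only in leaf and 89.5% in both.

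The shares of higher and lower probes varied with the start of the probe name. The starts stand for sets of contigs or clones, and the files do not say what they mean. A minimum of 100 probes was set after the names were seen and left 38 starts with 32213 probes. The most common start, wheat0130Contig with 12557 probes, lay near all probes, with 21.2% at least 2-fold higher in leaf and 37% lower. The next, MUGEST2003_23lib with 6108 probes, had 30.7% and 28.4%. In 2 starts, whsh_all and MUG, more than 50% of the probes had a 2-fold call in 1 direction. The differences between starts were not tested. Names starting with whsh_all had the highest share of probes at least 2-fold higher in leaf, 496 of 924 (53.7%, where all probes gave 24%), with 16.1% lower (all probes, 34.8%). Their median difference was 1.29. Starts of clone names with a similar lean were whsd, whsh, whvd, whva, whv and whkv, with 39.5% to 46.9% of their probes higher in leaf and 14.7% to 25.4% lower.

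Among the 38 starts, names starting with MUG and a number had the largest share lower in leaf. Of their 1264 probes 114 (9.02%) were at least 2-fold higher in leaf and 700 (55.4%) lower, with a median of −1.35. The start yNPF, left out with 93 probes, had 10.8% higher and 55.9% lower, with a median of −1.36. Names starting with whca had 8.82% higher and 48.5% lower, and those starting with whfl_all 14.8% and 41.9%. In the necrotic line whsh_all had 50.5% higher and 13.6% lower in leaf and MUG 6.25% and 47.6%, where all probes had 16.6% and 29.4%. In leaf at 23 °C against necrotic shoot these shares were 51.9% and 14.2% for whsh_all and 12.2% and 34.9% for MUG. All probes had 19.3% and 27.4% there. In all, 10 of the 38 starts had more probes higher than lower in leaf. That number ran from 8 to 30 over the scalings between arrays without the spike-in controls. Among these scalings whsh_all leaned to leaf and MUG to shoot each time. Relative to the spike-in controls whsh_all had 34.5% higher and 39.3% lower and MUG 2.93% and 82.7%. Of all 32489 probes 2996 were then at least 2-fold higher in leaf and 21588 lower.

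**Figure D5:**
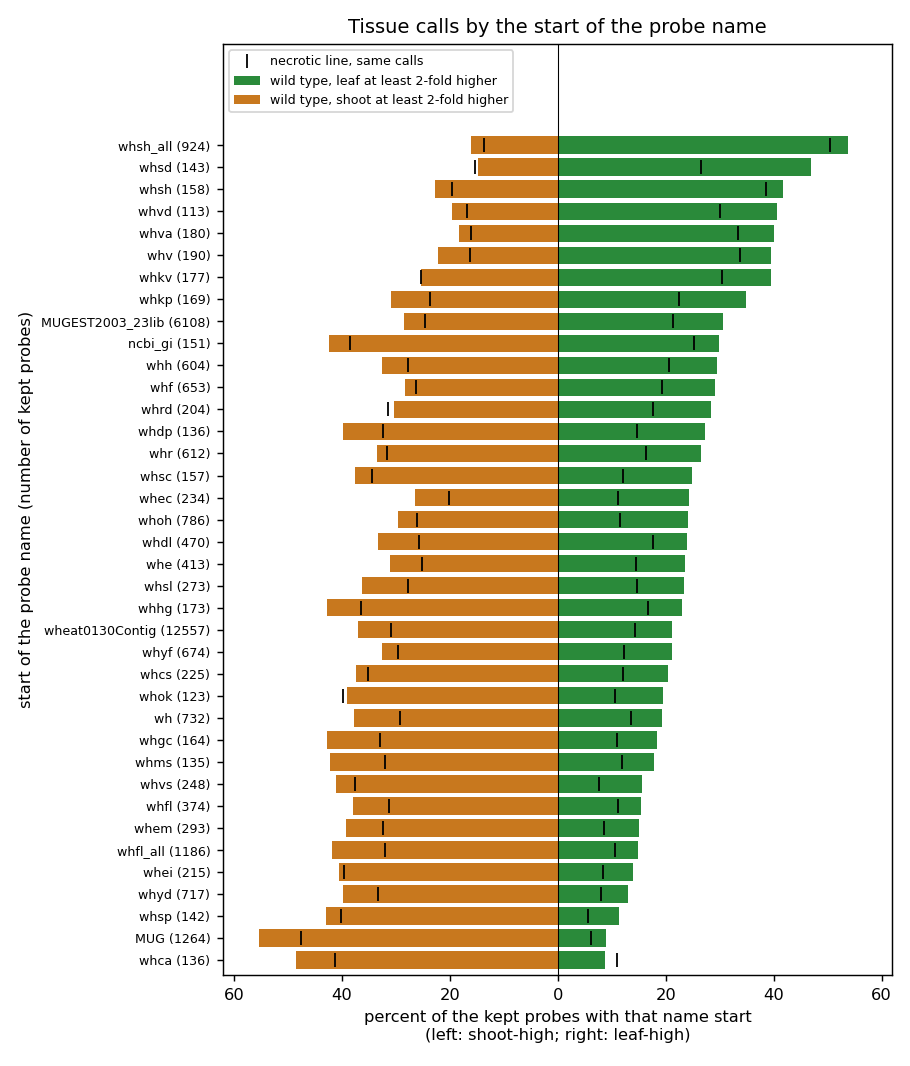
Percent of probes at least 2-fold higher in wild-type leaf (green, right) or in wild-type shoot (orange, left) for the 38 name starts with 100 or more probes, with the count of probes in brackets. Ticks mark the same calls in the necrotic line. Starts lean to leaf at the top (whsh_all, 53.7%) and to shoot near the bottom (MUG, 55.4%).

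Some probes come in pairs with matching names. For 1836 clones the array holds the clone name and the same name with a leading r, and both probes passed the filter for 1389. Both were at least 2-fold higher in leaf for 261 clones and both lower for 347, while 47 had opposite calls and 295 a call for only 1 probe. Taken one by one, 328 of the 1389 probes without the r and 376 of those with it were higher in leaf, and 467 and 434 lower. Over all probes 24% and 34.8% had those calls. The differences of the 2 probes correlated at r = 0.808 across the pairs, which share a clone name, with a median gap of 0.46.

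A further 833 pairs of names differ in the letter p or m before the last number, and the files do not say what the letters mark. Both probes passed the filter for 251 of these. In 21 pairs both were at least 2-fold higher in leaf, in 67 both lower, and in 16 the calls were opposite. Taken one by one, 41 of the 251 p probes and 39 of the m probes were higher in leaf and 101 and 117 lower, where 24% and 34.8% of all probes had those calls. The correlation was r = 0.395 with a median gap of 1.06, and whether this differs from the clone pairs was not tested. Often only 1 probe of the pair was detected: in wild-type leaf it was the p probe in 287 pairs, the m probe in 122, both in 148 and neither in 182. The remaining 94 pairs fell in none of these classes. In wild-type shoot the counts were 247, 128, 235 and 151, with 72 in none of these classes. More pairs than in leaf thus had both probes well above background. Detection was also higher in shoot over all 37826 probes, with 31889 on both shoot arrays against 29056 on both leaf arrays. The necrotic line had both in 158 pairs in leaf and in 249 in shoot, and leaf at 23 °C in 137.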

How the data were processed

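Cy3-labelled cRNA of total RNA was hybridised to one-colour Agilent arrays, 1 per sample, per the labels' protocols. The authors deposited scanner tables of spot intensity, made with Agilent Feature Extraction (version 10.5.1.1 per the file headers, 9.5 per the submitters' processing notes). Per the file headers, that software subtracted the background from this intensity and removed spatial trends on each array; no scaling between arrays was applied. The deposited series matrix holds the same linear, uncentred intensity values at all 39243 features (largest relative difference 0). Its column medians were 212.6 and 189.5 for wild-type leaf, 301.2 and 292.6 for wild-type shoot, 196.4 and 186.5 for necrotic leaf, 316.1 and 305.7 for necrotic shoot and 104.8 and 106.3 for leaf at 23 °C.

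Control spots were left out. Levels are log2 of the processed intensity minus the array's 75th percentile, which was 1777 and 1613 in wild-type leaf and 1901 and 1892 in wild-type shoot. On each array 12 to 143 spots that the software had marked as outliers were set to missing. Probes were kept if well above background on both arrays of wild-type leaf or of wild-type shoot. The model had 1 mean for each of 5 groups over all 10 arrays (lmFit and eBayes, limma 3.58.1 in R 4.3.3, with data.table in its version 1.17.8 for reading). The residual degrees of freedom were 5, the prior ones 1.61, and the median residual SD was 0.077. P-values are two-sided and Benjamini-Hochberg adjusted over all probes of a comparison. The script was tested on simulated data. Figures used matplotlib 3.10.9 and pandas 2.3.3 in Python 3.11.15. The number of arrays, 2 per group, limits the precision.

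Without gene annotation, the rule names the 2 largest rises and 2 largest falls among called probes at least 2-fold different, detected on all arrays of both groups and not overlapping, passing over names in the form of an accession. It adds the 2 probes of each direction with opposite 2-fold calls in the 2 lines, ranked by the smaller difference, and every probe named for a gene. The probes, lists and tests were chosen with earlier results of these data known. Of 10 gene lists, leaf mesophyll, shoot meristem and dividing cells, vernalization and flowering, root, wounding and necrosis, photosynthesis, sucrose and fructan, protein synthesis and cell wall matched 0 probes, and cold and dehydration matched 6, of which 2 were kept.

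Alternatives were normexp with an offset of 50, other scalings and filters, a fit on the compared arrays only, an intensity trend, outlier spots kept, treat at 2-fold, a replicate block, leaving out each array, and scaling to the spike-in controls, added after their signals were seen. Normexp used the median spot signal. Slide 3 held all 4 cold leaf arrays, slide 2 the 4 shoot arrays and slide 1 the arrays at 23 °C, so the tissue difference cannot be fitted with slide in the model. No probe sequences were used here.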

Additional observations from a re-analysis of the deposited data

Results flagged for a closer look

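The results here stand out because the leaf-minus-shoot difference was not the same in the wild-type and the necrotic line, by limma's test of that difference. At least 2-fold, it was higher in the wild type for 4059 probes and lower for 4398. As wild-type minus necrotic on the log2 scale it was 9.60 for rwhkv10e02_224, −0.61 for whsh_allContig1137, −2.24 for wheat0130Contig3065 and −0.91 for wheat0130Contig12062. For the probes chosen for opposite calls it was 6.89 for wheat0130Contig4923, 5.56 for rwhr12e15, −6.25 for whsh_allContig217 and −7.48 for wheat0130Contig7263. For Wcor15 the fitted value was −5.11, and with the undetected necrotic shoot at its bound it was −3.17 or lower. For RD29B it was 0.38, the weakest of these calls (adjusted p = 0.0373).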

How the results depend on the processing

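Scaling to the spike-in controls moved nearly every count: 2996 probes were at least 2-fold higher and 21588 lower in wild-type leaf, and 4574 and 25626 without a fold requirement. The same call in the necrotic line was then found for 1624 of the 2996 leaf-high and 20680 of the 21588 shoot-high probes. The opposite call was found for 185 and 50. With the 75th percentile the same call was found for 4688 of 7794 and 8515 of 11297, and the opposite call for 94 and 88. With normexp 5268 of 7910 shoot-high probes had the same call in the necrotic line. The opposite call was found for 40 of 6418 leaf-high and 29 of the 7910 shoot-high probes. RD29B turned to 0.036 after quantile normalization. Before scaling, the spike-in controls differed by 1.35. When both probes had to be detected on all 4 arrays, 133 p and m pairs and 1107 clone pairs remained. The p and m pairs then numbered 11 both leaf-high, 32 both shoot-high and 9 opposite. Clone pairs numbered 232 both leaf-high, 187 both shoot-high and 31 opposite. The cause of these changes was not tested.

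Leaving out each array in turn kept the 2-fold counts at 7684 to 7868 and 11027 to 11267 and the counts of calls at 12394 to 12812 and 15248 to 15836, with the lone array of a group assumed to vary like the others. Treat at 2-fold gave 6830 and 9755 and does not apply to counts without a fold. With the replicate number as a block the 2-fold counts were 7791 and 11283, and all 10 named probes tested kept their wild-type tissue call. For the difference between the lines, which was run with this replicate block only after the data had been seen, 9 of the 10 kept their call, and RD29B (0.38) had an adjusted p of 0.0568 in place of 0.0373. Replicate differences of leaf and shoot correlated at r = 0.0075, so the shared numbers are not taken as pairs. The signal over background limits the 981 probes detected on only some arrays of a group.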
